A study of Saccharomyces cerevisiae with 12 samples.

Results

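GCV1, SHM2, ADE2 and AAH1 are budding yeast genes of one-carbon and purine metabolism. They are 4 of the 3127 genes that a single-gene spot names on the array, and each was read by 1 of its 6912 spots. The genes were chosen by the ratios of mutant over wild type reported below, which had already been seen in these data, so all of their values are a description without a test. Their systematic names in the RefSeq gene table are YDR019C for GCV1, YLR058C for SHM2, YOR128C for ADE2 and YNL141W for AAH1. A further spot listed under both SHM2 and another gene was left out.

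Each slide carried RNA of a mutant in one channel and RNA of a wild-type strain in the other, on spotted arrays with indirect labelling. The strain Y18daft2, labelled as lacking both AFT1 and AFT2, was set against CM3260 in YPD rich medium at an optical density of 0.5, and again after such cultures had spent 2 hours in 200 mM hydroxyurea. A strain labelled as BY4741 aft1d was set against BY4741 in the same hydroxyurea treatment, and no aft1 pair in rich medium was analysed here. Each of these 3 comparisons had 2 slides with the channels exchanged, and each slide gave a strong and a weak column, 12 columns in all. The labels do not say whether the slides of a comparison came from separate cultures, so the spread between them may be technical. Hydroxyurea inhibits ribonucleotide reductase and so limits the supply of deoxyribonucleotides. AFT1 and AFT2 encode transcription factors that activate iron uptake genes when iron is scarce.

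GCV1 encodes the T subunit of the mitochondrial glycine cleavage complex, which breaks down glycine and passes a carbon unit to tetrahydrofolate. SHM2 encodes the cytosolic serine hydroxymethyltransferase, which converts serine and glycine into each other and charges the same cofactor. ADE2 encodes phosphoribosylaminoimidazole carboxylase, a step of purine synthesis from small precursors whose loss gives yeast colonies a red pigment. AAH1 encodes adenine deaminase, which turns adenine into hypoxanthine for salvage. In yeast, the activators Bas1 and Pho2 are known to switch on ADE genes and several one-carbon genes when adenine is low.

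Values below are log ratios of mutant over wild type, read as log2, and each slide value is the mean of its strong and its weak column. Columns were centred on their median, and a trend that columns shared in channel orientation was removed, so a value compares a gene with others that lie near it on that curve. The sources used here do not state the log base. The direction is likely but not settled, because it was read from the AFT1 spot on the aft1 slides. There AFT1 stood at -3.31 with the mutant in channel 1 and at -2.78 with it in channel 2. With the columns taken as already given as mutant over wild type, the fitted AFT1 value there was -0.26. The AFT1 spot did not read low on the slides labelled Y18daft2, where rich medium gave 0.25 and -0.30 and hydroxyurea gave -0.06 and -0.29. The AFT2 spot there gave -0.26 and 0.11 without hydroxyurea, and -0.22 and -0.13 with it. The sources used here do not say which part of either gene was removed, so these spots do not settle the Y18daft2 label. FIT3, a cell wall gene of iron uptake that Aft1 activates, was low on every slide. In Y18daft2 it read -2.32 and -2.80 in rich medium (adjusted p = 0.00272 in limma), and -1.97 and -1.35 in hydroxyurea (adjusted p = 0.0287 in limma, a call lost without the slide with the mutant in channel 1). In aft1 it read -1.66 and -1.80 (adjusted p = 0.0213 in limma, a call lost without either aft1 slide). All FIT3 calls were lost when all 12 columns were fitted with the slide as a block. The adjusted p in limma was then 0.0659 in rich medium, 0.9999 in Y18daft2 with hydroxyurea and 0.206 in aft1. From strong columns only, the calls in hydroxyurea were lost in both strains, with adjusted p of 0.194 and 0.215 in limma. The Y18daft2 call in hydroxyurea was also lost without a term for the mutant's channel (adjusted p = 0.0568 in limma). Over all 6912 spots the slides of a comparison correlated at 0.185 in rich medium, at -0.2 in the Y18daft2 hydroxyurea comparison and at 0.248 in the aft1 comparison after removal of the trend.

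GCV1 was higher in the library labelled Y18daft2 than in CM3260 in rich medium, on both slides. With the mutant in channel 1 it stood at 1.88 in the weak column and 2.74 in the strong column. With the mutant in channel 2 it stood at 1.21 and 1.28. The slide means of 2.31 and 1.25 ranked first and 4 from the highest of 3127 genes. The fitted value was 1.78 (SE 0.328, n = 2 slides), or 3.43-fold higher, which was the highest of all genes in that comparison. Here and below, the SE of a gene is pooled over all 6 slides and is the same in each of the 3 comparisons. It is thus not the spread of the 2 slides of a comparison. The fitted value was 0.94 without the slide with the mutant in channel 1 and 2.62 without the other. Its size, though not its sign, thus rested on which slide was used. Fits with a slide left out still correct for the mutant's channel, as estimated in the other comparisons. They can thus differ in size and sign from the slide left in.

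In hydroxyurea the slides of the Y18daft2 pair disagreed on GCV1. The slide with the mutant in channel 1 gave -0.88 in the weak and -1.33 in the strong column, and the slide with it in channel 2 gave 0.20 and 0.23. The slide means were -1.11 and 0.22, with a fitted value of -0.44 (SE 0.328, n = 2 slides). With columns only median-centred these slides gave -0.385 and -0.25, so both were then below 0. GCV1 sat at percentile 86.3 of the trend used for these columns, an axis that includes its own rich-medium values. Its print block 19, of 144 spots, had a median of -0.30 on the first of these slides.

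In the aft1 comparison GCV1 stayed near 0 on every column. The slide means were -0.07 and -0.15, and the fitted value was -0.11 (SE 0.328, n = 2 slides). In the order of fitted ratios, rich medium came first, aft1 in hydroxyurea next and Y18daft2 in hydroxyurea last. The latter 2 differed by -0.34 (SE 0.464), less than this pooled SE, while both rich-medium slides lay above all 4 hydroxyurea slides. How many of the 3127 genes had slides apart in this way was not counted, and GCV1 was chosen on these ratios. The difference between hydroxyurea and rich medium in the Y18daft2 pair was -2.22 (SE 0.464), the lowest of 3127 genes. It was -1.28 without the Y18daft2 hydroxyurea slide with the mutant in channel 1, -3.17 without the other, and -1.19 if the columns are taken as already turned. Without the first of these slides the fitted GCV1 value in hydroxyurea was 0.50, and without the other -1.39.

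SHM2 showed a smaller ratio in the same direction as GCV1 in rich medium. Its columns gave 0.85 weak and 1.11 strong with the mutant in channel 1, and 0.68 and 0.72 with it in channel 2. The slide means of 0.98 and 0.70 ranked 9 and 22 from the highest. The fitted value was 0.84 (SE 0.215, n = 2 slides), or 1.79-fold higher, and ranked 8 of 3127.

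In hydroxyurea SHM2 also differed in sign between the slides of the Y18daft2 pair, at -0.63 and 0.12, with a fitted value of -0.26 (SE 0.215). It was above 0 on both aft1 slides, at 0.47 and 0.11, with a fitted value of 0.29 (SE 0.215). The rich-medium slides of SHM2 lay above every hydroxyurea slide, but the aft1 and the Y18daft2 hydroxyurea slides overlapped. As for GCV1, the share of all genes with such a separation was not counted. Hydroxyurea minus rich medium came to -1.09 (SE 0.304) in the Y18daft2 pair, and the Y18daft2 pair minus the aft1 pair in hydroxyurea to -0.54 (SE 0.304). Without the Y18daft2 hydroxyurea slide with the mutant in channel 1 these differences were -0.56 and -0.0049, and the fitted SHM2 value of that pair in hydroxyurea was 0.28. Without the other slide they were -1.63 and -1.08. In rich medium the trend moved SHM2 more than GCV1. With columns only median-centred its slides read 1.49 and 0.265 in rich medium, 0.375 and -0.50 in Y18daft2 with hydroxyurea, and 0.545 and -0.105 in aft1.

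**Figure D1:**
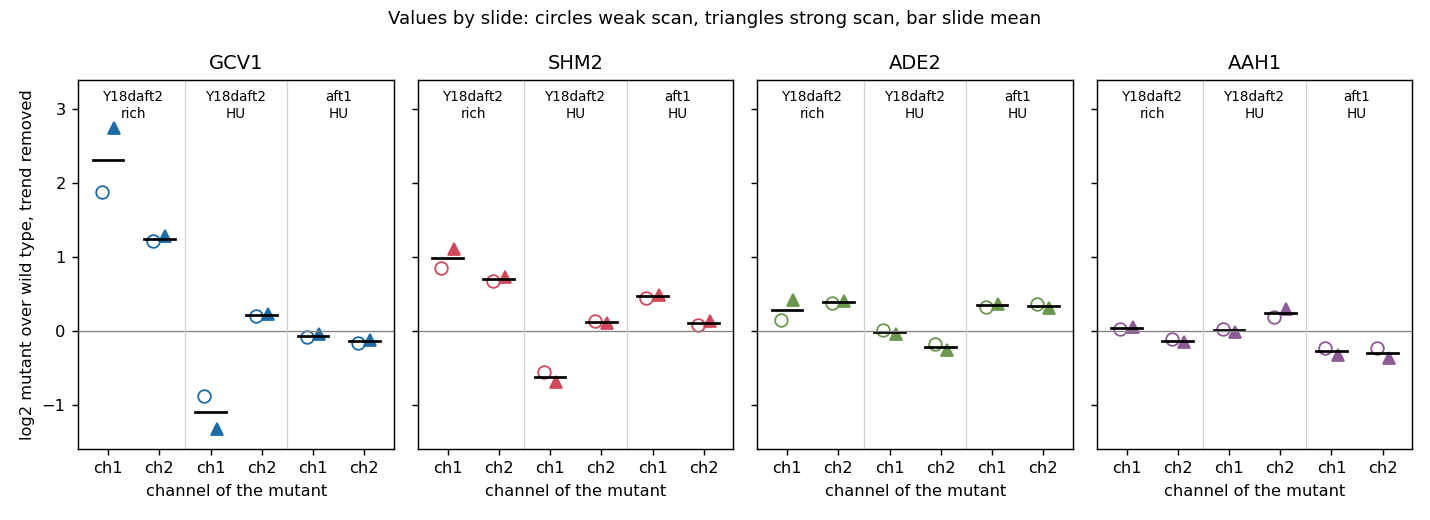
Log2 ratio of mutant over wild type after removal of the shared trend (vertical axis) for each gene by slide, named by comparison and by the channel of the mutant (ch1, ch2). HU is hydroxyurea. Open circles are weak columns, filled triangles strong columns and bars the mean of the slide. GCV1 and SHM2 lie highest on the rich-medium slides, and their Y18daft2 hydroxyurea slides fall on both sides of 0.

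ADE2 had small ratios, with slide means that agreed in sign in every comparison once the trend was removed. In rich medium it stood at 0.28 and 0.39, for a fitted value of 0.34 (SE 0.160, n = 2 slides). In the aft1 comparison it stood at 0.34 and 0.33, for the same fitted value of 0.34 (SE 0.160). In the Y18daft2 pair with hydroxyurea it stood at -0.01 and -0.22, for a fitted value of -0.12 (SE 0.160). The first of these means joins columns that differed in sign, at 0.01 weak and -0.04 strong. Both hydroxyurea slides of that pair were below the slides of the other comparisons, and rich medium and aft1 overlapped. How many of all genes had slides apart in this way was not counted. Slides opposite in sign to those of the Y18daft2 pair in hydroxyurea were found for 10.7% of 3127 genes in rich medium and for 12.2% in aft1. Fitted ranks were 148 and 135 from the highest in rich medium and in aft1, and 592 from the lowest in the Y18daft2 hydroxyurea comparison. With columns only median-centred its Y18daft2 hydroxyurea slides read 0.395 and -0.475 and so differed in sign, while rich medium gave 0.675 and 0.11 and aft1 gave 0.415 and 0.165.

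AAH1 ran the other way from ADE2 in the hydroxyurea comparisons. Its slides read -0.28 and -0.30 in aft1, for a fitted value of -0.29 (SE 0.163, n = 2 slides), and ranked 240 and 405 from the lowest. In the Y18daft2 pair with hydroxyurea they read 0.01 and 0.24, for a fitted value of 0.12 (SE 0.163). The first of these means joins columns that differed in sign, at 0.02 weak and -0.01 strong. In rich medium the AAH1 slides read 0.04 and -0.13, for a fitted value of -0.05 (SE 0.163), and differed in sign. Only the aft1 slides lay apart from the others, since the rich-medium and Y18daft2 hydroxyurea slides overlapped. The share of all genes with such a separation was not counted. Slides opposite in sign between the 2 hydroxyurea comparisons were found for 12.2% of 3127 genes. The Y18daft2 pair minus the aft1 pair in hydroxyurea came to 0.41 (SE 0.230).

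Ratios with the trend left in and before they were turned were also compared between the channels. As channel 1 over channel 2 and relative to the column median, GCV1 in rich medium went from 1.90 (weak) and 2.77 (strong) with the mutant in channel 1 to -1.23 and -1.27 with it in channel 2. SHM2 went from 1.16 and 1.81 to -0.34 and -0.19. Both changed sign when the channels were exchanged. In the Y18daft2 hydroxyurea comparison SHM2 kept its sign, at 0.31 and 0.44 and then 0.40 and 0.59, and so did ADE2, at 0.34 and 0.45 and then 0.38 and 0.56. SHM2 in aft1 also kept its sign, at 0.51 and 0.56 and then 0.11 and 0.11, so that with the trend left in its ratio on the second aft1 slide was -0.105. AAH1 in aft1 changed sign, from -0.20 and -0.30 to 0.27 and 0.41, and GCV1 in aft1 stayed between -0.03 and 0.29.

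**Figure D2:**
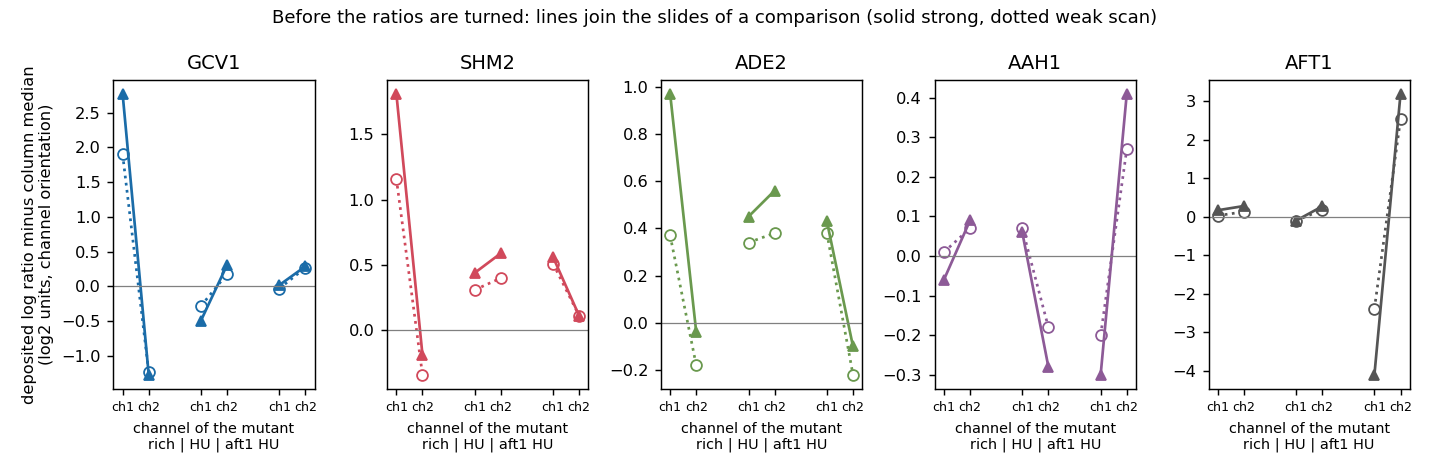
Deposited log ratio minus the column median, left as channel 1 over channel 2 (vertical axis, a scale of its own in each panel), against the channel of the mutant for each comparison. Lines join the slides of a comparison, with triangles and solid lines for strong and circles and dotted lines for weak columns. GCV1 in rich medium and AFT1 in aft1 cross 0 steeply, while SHM2 and ADE2 stay above 0 in the Y18daft2 hydroxyurea comparison.

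Set against all genes, GCV1 and SHM2 lay farthest from 0 in rich medium, AAH1 in aft1, and ADE2 about equally far in rich medium and in aft1. The median of the 4 was 0.63 on the slide with the mutant in channel 1 and 0.55 on the other, against 0.00 and 0.01 for all genes. It was -0.32 and 0.17 in the Y18daft2 hydroxyurea comparison, and 0.14 and -0.02 in the aft1 comparison. Above 0 lay 4 and 3 of the 4 genes on the rich-medium slides, 1 and 3 on the Y18daft2 hydroxyurea slides, and 2 and 2 on the aft1 slides. By fitted value, 50.3%, 48% and 47.8% of all genes lay above 0 in these 3 comparisons, and no such share was counted by slide. The standard deviation over all genes ran from 0.205 to 0.304 per slide. Across the 6 slides GCV1 and SHM2 correlated at 0.919 and ADE2 and AAH1 at -0.826, while the other pairs ran from -0.114 to 0.581. These correlations describe 6 slides that share their comparisons, and GCV1 and SHM2 share the high rich-medium slides and the low first Y18daft2 hydroxyurea slide.

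**Figure D3:**
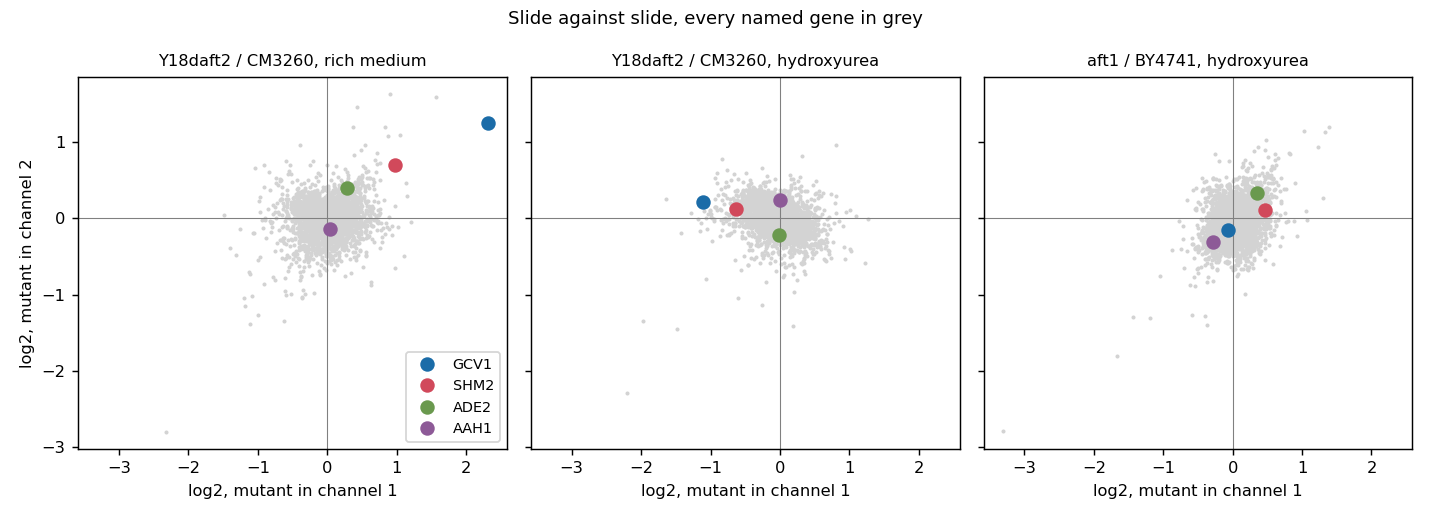
Each slide value with the mutant in channel 1 (horizontal axis, log2 mutant over wild type) against the slide with it in channel 2 (vertical axis) for the 3 comparisons. Grey points are the 3127 named genes and coloured points the 4 chosen genes. GCV1 stands at 2.31 and 1.25 in rich medium, apart from the cloud, and lies on the left of the cloud in the Y18daft2 hydroxyurea panel.

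Other genes of these pathways were read from 6 lists of 66 genes, 27 of which a single-gene spot named, so that 23 were left beside the 4. GCV2, GCV3 and LPD1, the other subunits of the glycine cleavage complex, were not analysed here. Nor were SHM1, the mitochondrial partner of SHM2, the purine synthesis genes ADE1, ADE4, ADE13 and ADE17, or the activator GCN4. Of the 23 genes, 0 passed an adjusted p of 0.05 in rich medium in limma with Benjamini-Hochberg adjustment over all genes, against 8 of 3127 genes or 0.256%. The lowest adjusted p was 0.583. Unadjusted, 3 of the 23, or 13%, had a p under 0.05, against 5.08% of all genes, with 2 higher and 1 lower.

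Of those 3 genes in rich medium, PRS3 and PRS5 encode subunits of the enzyme that makes phosphoribosyl pyrophosphate, the sugar on which purines are built. PRS3 read 0.56 and 0.43, with a fitted value of 0.49 (SE 0.177, adjusted p = 0.73 in limma). PRS5, named here after its values were seen, read 0.38 and 0.42, with a fitted value of 0.40 (SE 0.160, adjusted p = 0.867 in limma). ADO1, which encodes adenosine kinase of the salvage route, read -0.39 and -0.70, with a fitted value of -0.55 (SE 0.171, adjusted p = 0.583 in limma). These calls turned on how the trend was drawn. Of the 17 other trend axes and spans tried after the data were seen, ADO1 passed under 4 and PRS3 under 1. The adjusted p in limma ran from 0.0344 to 0.05 for ADO1 and was 0.0445 for PRS3. The settings under which ADO1 passed called from 64 to 92 of all genes in rich medium, against 8 as reported. Of the 23, 13 had a fitted value above 0 and the median was 0.03, against 0.00 for all genes, of which 50.3% lay above 0. The ratios of PRS3, PRS5 and ADO1 were smaller in size than that of SHM2, which had been chosen on such ratios.

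In the Y18daft2 pair with hydroxyurea, 0 of the 23 genes passed in limma, against 0.0959% of all genes. An unadjusted p under 0.05 was found for 1, or 4.35%, against 1.57% of all genes. This was PRS1, another gene of phosphoribosyl pyrophosphate synthesis, at -1.42 and -0.20 with a fitted value of -0.81 (SE 0.305, adjusted p = 1 in limma). Without the slide with the mutant in channel 1 the fitted value of PRS1 was 0.080 through the channel correction, although the slide left in read -0.20. Without the other slide the fitted value of PRS1 was -1.70. Its adjusted p in limma was 0.0442 when either rich-medium slide was left out. Of the 23, 6 lay above 0 and 17 below, with a median of -0.09 against -0.01 for all genes, of which 48% lay above 0. This rested mostly on 1 slide. The median of the 23 was -0.19 with the mutant in channel 1 and -0.01 with it in channel 2, against -0.03 and 0.02 for all genes. All 6 salvage genes other than AAH1 had a fitted value below 0, from -0.37 for ISN1, an inosine monophosphate nucleotidase, to -0.01 for PNP1, a purine nucleoside phosphorylase. AAH1 itself was above 0 there. The slides disagreed on 4 of these 6, since APT1 (0.20), MEU1 (0.14) and GUD1 (0.13) were above 0 with the mutant in channel 2, and PNP1 (0.03) with it in channel 1.

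In the aft1 comparison 0 of the 23 passed in limma, against 0.192% of all genes, and 1, or 4.35%, had an unadjusted p under 0.05, against 4.19%. This was SER2, which encodes phosphoserine phosphatase of serine synthesis, at 0.41 and 0.44 with a fitted value of 0.42 (SE 0.169, adjusted p = 1 in limma). ADE3, the cytosolic enzyme that interconverts carbon-carrying folates, read 0.34 and 0.45, with a fitted value of 0.40 (SE 0.180). Above 0 lay 8 of the 23, and the median was -0.05 against -0.01 for all genes, of which 47.8% lay above 0.

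The difference between hydroxyurea and rich medium in the Y18daft2 pair passed in limma for 0 of the 23 and for 0 of all genes, 0%. Unadjusted, 2 of the 23, or 8.7%, had a p under 0.05, against 3.49% of all genes. Both lay below 0, PRS3 at -0.58 (SE 0.251) and ISN1 at -0.69 (SE 0.276). The difference between the Y18daft2 pair and the aft1 pair in hydroxyurea passed for 0 of the 23, against 0.032% of all genes, and 0 of the 23 had an unadjusted p under 0.05, against 2.46%. Both differences share the Y18daft2 hydroxyurea slides.

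List by list, the genes with the highest and lowest fitted values were read in each comparison. In rich medium the serine and glycine genes other than GCV1 and SHM2 were SER2 at -0.21 and SER1, the transaminase step of serine synthesis, at 0.09. SER1 was -0.04 and SER2 -0.04 in the Y18daft2 pair with hydroxyurea, and SER1 was 0.02 in aft1. The 6 folate and methyl genes ran in rich medium from -0.21 for SAH1, adenosylhomocysteine hydrolase, to 0.26 for MET7, folylpolyglutamate synthetase. In the Y18daft2 pair with hydroxyurea they ran from -0.47 for FOL2, the first enzyme of folate synthesis, to 0.05 for MET7. In aft1 they ran from -0.09 for DFR1, dihydrofolate reductase, to ADE3.

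The 6 purine synthesis genes other than ADE2 ran in rich medium from -0.05 for PRS1 to PRS3. In the Y18daft2 pair with hydroxyurea the highest was ADE6, an amidotransferase step, at 0.05, and in aft1 they ran from -0.18 for PRS3 to 0.11 for ADE6. ADE12, the first step from inosine monophosphate to AMP, read -0.28, -0.10 and 0.26 in the 3 comparisons in that order. The salvage genes other than AAH1 ran in rich medium from ADO1 to 0.32 for ISN1, and in aft1 from -0.32 for ADO1 to 0.11 for ISN1. APT1, which joins adenine to phosphoribosyl pyrophosphate and so competes with AAH1 for adenine, read 0.03, -0.14 and -0.24. The activator gene BAS1 had fitted values of 0.10, -0.29 and 0.19 over the 3 comparisons, and PHO2 of -0.04, 0.01 and -0.29. No adjusted p under 0.05 was found for any gene in these 2 paragraphs, as counted above.

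**Figure D4:**
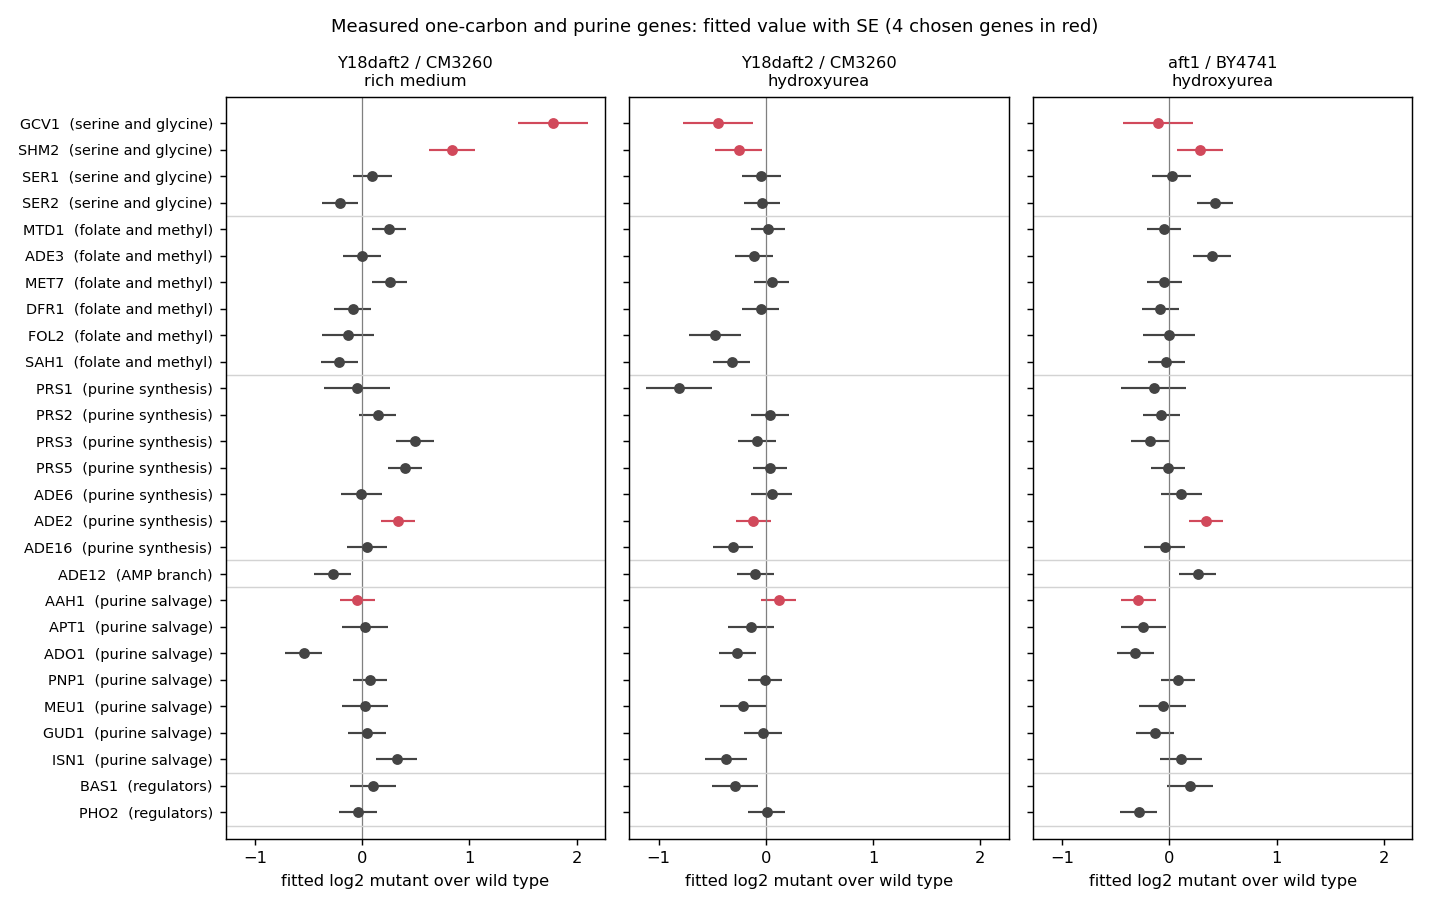
Fitted log2 ratio of mutant over wild type (horizontal axis) with its standard error (bars) for the 27 measured genes of the 6 lists in the 3 comparisons. Red points are the 4 chosen genes, dark points the 23 others, and grey lines separate the lists. GCV1 at 1.78 and SHM2 at 0.84 stand to the right in rich medium, and PRS1 at -0.81 lies lowest in the Y18daft2 hydroxyurea panel.

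Genes with the most similar profile were ranked by Pearson r over the 6 slides, among 1602 genes whose values varied by a standard deviation of at least 0.2. Nearest to GCV1 were PGU1 (r = 0.995), PXR1 (0.984) and SYF2 (0.981). PGU1, which encodes a secreted pectin-cleaving enzyme, stood only at 0.39 and 0.19 on the rich-medium slides, so the likeness is of shape and not of size. Nearest to SHM2 were VID27 (0.999), CRH1 (0.991) and MOH1 (0.982). CRH1, a cell wall enzyme, stood at 0.67 and 0.38 on the rich-medium slides, then at -0.49 and 0.05 in the Y18daft2 pair with hydroxyurea. Nearest to ADE2 were LYS2 (0.982), YNL035C (0.978) and YCR099C (0.974). LYS2, a step of lysine synthesis, lay at -0.55 and -0.68 in the Y18daft2 pair with hydroxyurea, lower than ADE2 on both slides. Nearest to AAH1 were YGR272C (0.998), RPB10 (0.99) and LHP1 (0.981). RPB10, a subunit shared by the RNA polymerases, read -0.34 and -0.42 in aft1. With 6 slides and so many candidates, high values of r are easily reached. None of the measured pathway genes was among the nearest 3 of any of the 4. Pathway genes that varied less than the cutoff, such as PNP1, could not be ranked, and how many did was not counted.

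**Figure D5:**
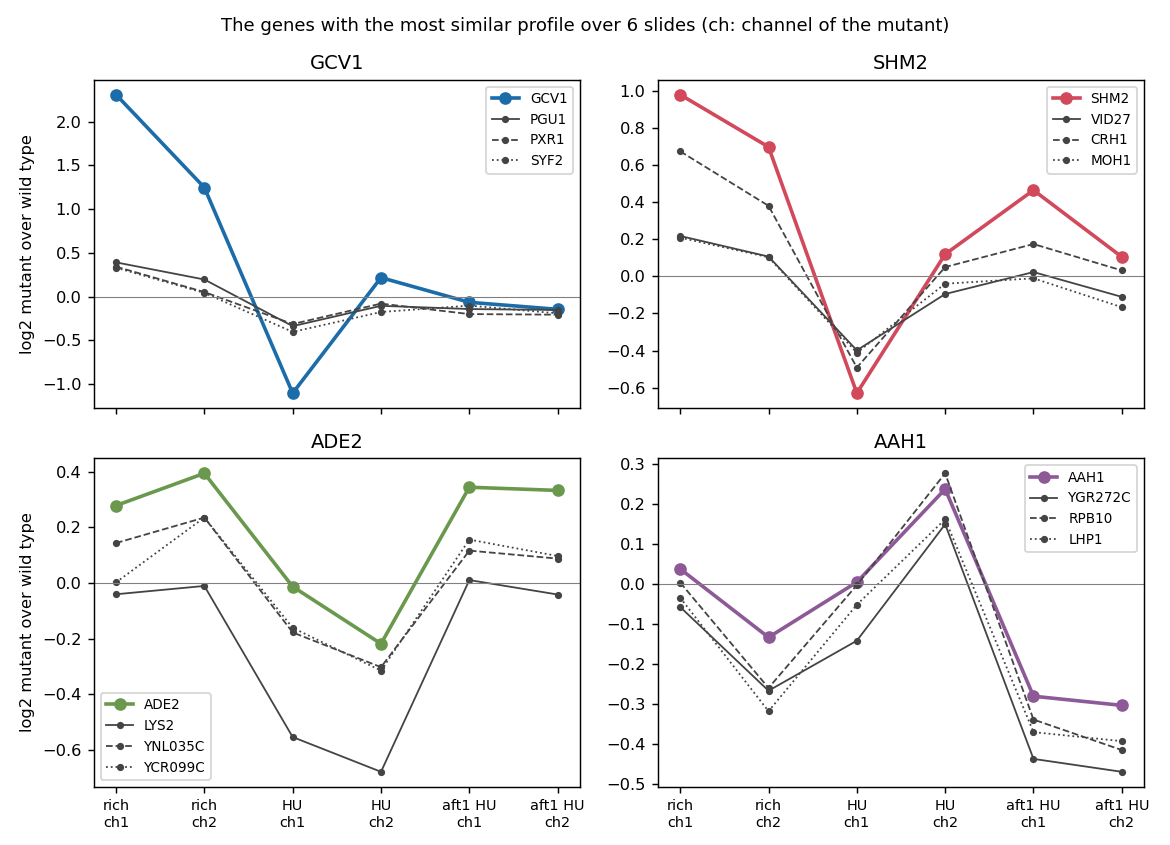
Slide values (vertical axis, log2 mutant over wild type, a scale of its own in each panel) of each chosen gene and of the 3 genes with the highest Pearson r, over the 6 slides in order of comparison and channel of the mutant. Coloured lines are the chosen genes and dark lines the others. The genes nearest to GCV1 share its shape at a much smaller size.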

How the data were processed

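Per the labels, total RNA of 12 two-channel columns from 6 slides was measured. The authors deposited log ratios read here as log2. Their base, dyes, background correction and normalisation are not given in the sources used here, and spot intensities, and so signal over background, were not used here. A gene was named through the probe table where a spot had 1 symbol, for 3344 spots of 3731 listed.

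Exact zeros of strong columns, 623 of 41472 values, were set to missing. Columns were median-centred and replaced by residuals of a loess curve (span 0.3, 4 iterations) on the mean of all columns of the other comparisons, in channel orientation, and then turned. Spots and then columns were averaged per slide. limma 3.58.1 in R 4.3.3 fitted 3 comparisons and the mutant's channel over 6 slides, with 2 residual degrees of freedom per gene before moderation and Benjamini-Hochberg adjustment. The script was tested on simulated data.

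The axis and span were kept after counts of called genes, and values of GCV1, AFT1 and FIT3, had been seen under 17 settings. The kept setting was chosen because its counts of 8, 3 and 6 genes matched earlier results of these data, which is not an independent reason. Under the other 16, the genes called ran from 1 to 92 in rich medium, 2 to 8 in the Y18daft2 pair with hydroxyurea and 3 to 61 in aft1.

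The members and lists were chosen with earlier results of these data known. Named were the 4 genes, AFT1 and AFT2, FIT3 and PRS5 (added after their values were seen), regulators, direct partners, listed genes past the threshold, the highest and lowest gene of each list and comparison, and the 3 genes nearest in profile. Columns taken as already turned, scans, zeros, centring, print blocks, the channel term and left-out slides were tried as alternatives.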

Additional observations from a re-analysis of the deposited data

Results flagged for a closer look

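Among 37 named genes, 15 differences were picked out because every slide of one comparison lay above 0 and every slide of the other below it, or because the difference passed the test. Opposite slides accounted for 14 of them, and none of these 14 was shown by a test. Such opposite slides were found for 10.7% of 3127 genes between hydroxyurea and rich medium in the Y18daft2 pair, and for 12.2% between the Y18daft2 pair and the aft1 pair in hydroxyurea.

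The difference that passed was AFT1 between the Y18daft2 and the aft1 pair in hydroxyurea, at 2.87 (SE 0.288, adjusted p = 0.0163 in limma). This call was lost from strong columns only and when all 12 columns were fitted with the slide as a block. It was also lost with the columns taken as already turned. AFT1 read -3.31 and -2.78 on the aft1 slides, and its sign there set the direction of all ratios.

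For ADE2 the difference was -0.45 (SE 0.226) between hydroxyurea and rich medium and -0.45 (SE 0.226) between the Y18daft2 and the aft1 pair, and neither was tested because ADE2 was chosen on these values. With columns only median-centred, the Y18daft2 hydroxyurea slides of ADE2 no longer agreed in sign, at 0.395 and -0.475. With the trend removed, the slide with the mutant in channel 1 had columns that differed in sign, at 0.01 weak and -0.04 strong. For AAH1 the difference was 0.41 (SE 0.230) between the Y18daft2 and the aft1 pair, likewise not tested. Its Y18daft2 hydroxyurea slide with the mutant in channel 1 also had columns that differed in sign, at 0.02 weak and -0.01 strong.

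For AFT2, with 0.54 and 0.20 on the aft1 slides, the same difference was -0.54 (SE 0.251, adjusted p = 0.999 in limma). For ISN1 between hydroxyurea and rich medium it was -0.69 (SE 0.276, adjusted p = 1 in limma).

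The other 9 belong to genes picked for a profile like that of GCV1, SHM2 or ADE2, so their direction follows from that choice. Between hydroxyurea and rich medium the differences were -0.52 for PGU1, -0.39 for PXR1, -0.48 for SYF2, -0.41 for VID27, -0.38 for MOH1, -0.43 for YNL035C and -0.36 for YCR099C, with an adjusted p of 1 in limma for each. Between the Y18daft2 and the aft1 pair they were -0.34 for YNL035C and -0.37 for YCR099C, with an adjusted p of 0.999 in limma for both. With 2 slides in each comparison, no slide could be judged to stand apart from its group.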

How the results depend on the processing

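Of 34 alternatives, 17 were chosen after the data were seen. GCV1 and SHM2 in rich medium kept a ratio above 0 in all 34. GCV1 ran from 0.94 to 2.62 and SHM2 from 0.60 to 1.08, or 0.53 and 0.14 if the columns are taken as already turned. The number of the 23 other genes past the threshold was 0 as reported, where 8 of all genes were called in rich medium. There it was 1 (ADO1) with the axis from all 12 columns, where 84 of all genes were called. It was also 1 (ADO1) with the axis from strong scans (64 of all genes) or from all slides at span 0.1 (74). With an axis per scan it was 2 (ADO1 and PRS3), where 92 of all genes were called. Leaving out a slide gave 0 to 0 in rich medium, 0 to 1 in the Y18daft2 pair with hydroxyurea and 0 to 1 for hydroxyurea minus rich medium. PRS1 (-0.81) had an adjusted p of 0.0442 in limma without either rich-medium slide. The median of the 4 in rich medium, 0.588, was 0.663 from strong scans, 0.513 from weak scans, 0.113 as already turned, 0.747 with the axis from the other slides, and 0.525 to 0.651 with a slide left out. With a slide left out it ran from -0.417 to 0.284 in the Y18daft2 pair with hydroxyurea and from -0.111 to 0.16 in aft1, in both turning sign without the slide with the mutant in channel 1, and it was -0.185 in aft1 as deposited. As already turned, signs reversed for ADE2 in rich medium (-0.058), in the Y18daft2 pair with hydroxyurea (0.10), for hydroxyurea minus rich medium (0.16) and against aft1 (0.10), for AAH1 in the Y18daft2 pair with hydroxyurea (-0.12) and in aft1 (0.011), and for GCV1 in aft1 (0.040). They also turned for AAH1 in rich medium (0.086), for hydroxyurea minus rich medium (-0.20) and against aft1 (-0.13), and for FIT3 in rich medium (0.24) and in aft1 (0.068). SHM2 in aft1 was -0.0075 as deposited. With a slide left out, SHM2 in aft1 ran from -0.012 (without the slide with the mutant in channel 1) to 0.58. In the Y18daft2 pair with hydroxyurea ADE2 ran from -0.24 to 0.013 and AAH1 from -0.044 to 0.29, both turning without the slide with the mutant in channel 2. GCV1 there ran from -1.39 to 0.50 and SHM2 from -0.79 to 0.28, both turning without the slide with the mutant in channel 1. For SHM2 in aft1, ADE2 and AAH1 the slides left in at the turn read 0.11, -0.013 and 0.0051. Their signs thus changed through the channel correction, which such fits take from the other comparisons. The causes of the other changes were not tested. Genes called in rich medium numbered 8 as reported, 84 with the axis from all 12 columns, 2 as deposited, 30 without the slide with the mutant in channel 2 and 0 as already turned. No paired analysis was possible because the labels number no replicates.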
